A study of Mus musculus with 10 samples.

Results

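Mouse cells labelled WT were followed through 24 h of TNF-alpha on 5 two-colour arrays, picked by the genotype in their labels from the 10 arrays of the study. Untreated WT cells (0 h) were hybridised on 2 arrays, a and b, and WT cells after 1.5, 6 and 24 h of TNF-alpha on 1 array each. The other 5 arrays held Sirt6-/- cells (labelled KO) at the same times, again with 2 arrays at 0 h. They are set here beside the WT values. Their 0 h pair also enters the spread in the tests of single times, and all 5 enter the test of the difference from KO. Sirt6 encodes a NAD-dependent deacetylase of chromatin. The sources used here name no cell type, TNF-alpha dose, strain or age of the mice. They do not say whether arrays a and b came from separate cultures, so the spread between these arrays may be technical. In the tests of single times and of the difference from KO, p-values measure only that spread in the 0 h pairs. In the test of treated against untreated arrays, the spread also holds the differences among the 1.5, 6 and 24 h arrays, real or technical.

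Each value is a log ratio of the sample (Cy5) to a universal mouse reference RNA (Cy3), where 0 means as much signal as in the reference. The base and the direction of the ratio are not stated; it was read as log2 of Cy5 over Cy3, because the values reach from -8.23 to 8.97, too wide for log10, and Cy5 marks the sample in the labels. Under this reading Sirt6 was lower on 4 of the 5 KO arrays than on any WT array (values follow); with the ratio turned, every sign in the text would turn. Values were centred on the median of each array over genes, and 14365 genes were tested, of which 9794 had 1 probe. Before centring the medians over genes of the WT arrays, in order of time, were 0.005, -0.10, 0.012, -0.19 and -0.23. The spread was uneven. The SD over genes was 0.539 and 0.585 at 0 h and 0.526 at 1.5 h, against 0.746 at 6 h and 0.727 at 24 h. The 0 h arrays correlated at 0.86 over genes, and the 24 h array at 0.64 to 0.71 with the other WT arrays. Sirt6, measured by 2 probes, lay between -0.16 and 0.071 on the WT arrays and between -1.16 and -0.76 on 4 KO arrays. On the array labelled KO 24 h it was -0.054, within the WT range, so counts of genes shared with KO are also given without this array, except those at 24 h, which rest on it alone.

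**Figure D1:**
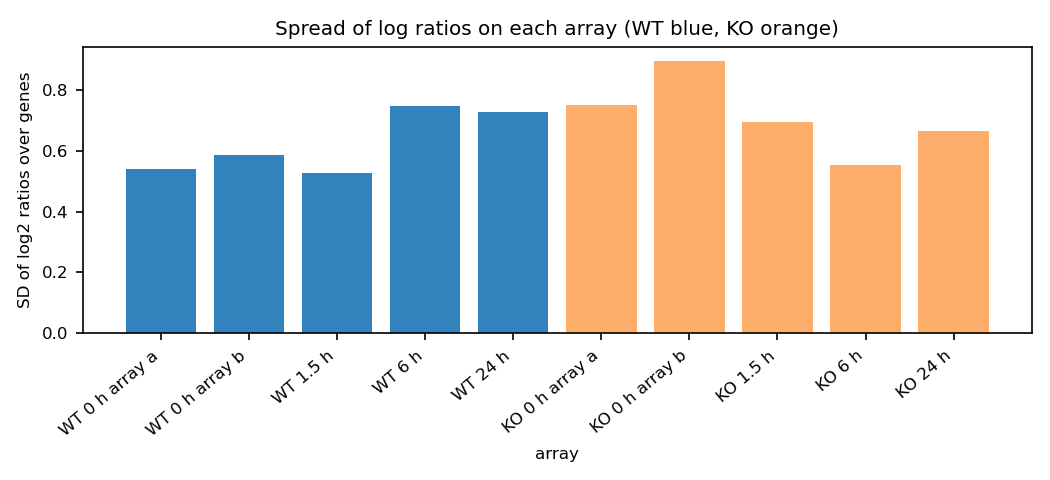
SD of the centred log2 ratios over 14365 genes on each of the 10 arrays (bars from 0; WT blue, KO orange). The WT arrays at 6 and 24 h, 0.746 and 0.727, stand above the other 3 WT arrays, which lie between 0.526 and 0.585.

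TNF-alpha is a cytokine made mainly by macrophages and T cells that acts on most cells of the body. Its receptor recruits adaptors and ubiquitin ligases (the TRAF and cIAP proteins), which switch on the IkB kinase complex. The kinase marks the inhibitor IkB-alpha for destruction, and NF-kB dimers such as RelA with p50 enter the nucleus and bind kB sites in promoters and enhancers. Among their targets are chemokines, which draw leukocytes, and the inhibitors of the pathway itself, IkB-alpha and A20, whose resynthesis ends the signal.

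The lists of NF-kB pathway genes, CC chemokines, CXC and CX3C chemokines, and interleukins with colony-stimulating factors held 85 measured genes. Of these, 18 lay above both 0 h arrays at all 3 times in WT and also in KO. Over all 14365 genes 164 did so. The lists were chosen with earlier results known, and the 18 were picked after their values were seen. RefSeq promoter windows, the 250 bases before a gene's start on GRCm38.p6, were at hand for 14 of the 18. They were searched on both strands for GGG, any 2 bases, then TTTCC, and for GGG, any 2 bases, then TTCCC. These motifs can overlap each other and are close forms of the kB consensus. No window was at hand for Ccl2, Ccl7, Cxcl5 and Nfkbiz. The windows of Bcl3, Birc3, Ikbke, Rela and Cx3cl1 held neither motif. Either motif was found in 9 of the 14 (64.3%), in Nfkbia, Nfkb2, Tnfaip3, Ccl9, Ccl20, Cxcl1, Cxcl3, Cxcl10 and Csf1. It was found in 11 of 54 other measured members of the lists with a window (20.4%) and in 417 of 11632 tested genes with a window (3.58%). Over all 32851 windows the motif ending in TTTCC occurred in 1.41% and that ending in TTCCC in 1.53%. A match describes letters and does not show binding. Windows of 5 of the 9 genes with a match are shown, with the matches in capitals:
Nfkbia (chr12:55492648-55492897, minus strand): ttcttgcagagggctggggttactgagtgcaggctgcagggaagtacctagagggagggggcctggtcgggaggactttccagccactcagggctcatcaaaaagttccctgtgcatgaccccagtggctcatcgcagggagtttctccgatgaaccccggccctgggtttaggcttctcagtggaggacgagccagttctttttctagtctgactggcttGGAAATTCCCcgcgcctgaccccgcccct
Nfkb2 (chr19:46304487-46304736, plus strand): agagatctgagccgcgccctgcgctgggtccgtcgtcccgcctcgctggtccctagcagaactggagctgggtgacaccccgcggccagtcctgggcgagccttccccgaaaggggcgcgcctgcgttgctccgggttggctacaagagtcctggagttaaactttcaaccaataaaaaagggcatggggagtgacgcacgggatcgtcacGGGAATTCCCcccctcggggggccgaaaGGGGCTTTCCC
Cxcl1 (chr5:90890995-90891244, plus strand): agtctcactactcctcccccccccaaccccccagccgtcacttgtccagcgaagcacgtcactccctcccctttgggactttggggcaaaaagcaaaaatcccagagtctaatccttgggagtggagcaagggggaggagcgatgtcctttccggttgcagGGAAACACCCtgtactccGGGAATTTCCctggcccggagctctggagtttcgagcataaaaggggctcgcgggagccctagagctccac
Ccl20 (chr1:83116516-83116765, plus strand): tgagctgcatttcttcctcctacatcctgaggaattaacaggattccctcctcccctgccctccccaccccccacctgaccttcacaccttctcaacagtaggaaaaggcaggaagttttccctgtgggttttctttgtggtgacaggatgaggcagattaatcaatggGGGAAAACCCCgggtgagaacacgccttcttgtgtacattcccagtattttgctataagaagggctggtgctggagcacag
Csf1 (chr3:107760470-107760719, minus strand): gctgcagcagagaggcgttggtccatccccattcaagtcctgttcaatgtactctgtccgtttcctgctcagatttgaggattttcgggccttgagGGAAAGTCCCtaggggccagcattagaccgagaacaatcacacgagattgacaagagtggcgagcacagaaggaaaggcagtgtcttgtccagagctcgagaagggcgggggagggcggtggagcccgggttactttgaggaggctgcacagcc
In the windows shown, the matches lay between the last base before the gene start, in Nfkb2, and 154 bases before it, in Csf1. That of Nfkbia lay at bases 29 to 20 before the start. Cxcl1 held the motif ending in TTTCC at 2 places. Some genes have several listed starts, and a match in any of their windows was counted. Another window of Nfkb2, not shown, held a match at bases 225 to 216 before its start.

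Of the 85 list genes, Ccl2 and Ccl20 had the largest changes upward over the treated arrays, followed by Cxcl1, Ccl7 and Cxcl5. The largest downward was that of Ccl12, another CC chemokine, larger in size than that of Cxcl1. Ccl2, the main attractant of monocytes, measured -0.34 and -0.60 at 0 h, then 2.11, 2.67 and 2.77 at the 3 later times. All 3 treated arrays stood far above both untreated arrays. The treated arrays together were higher by 2.99 ± 0.24 (log2, SE, n = 3 treated and 2 untreated arrays), or 7.93-fold, the smallest adjusted p of that comparison (limma, 0.107). At 24 h alone Ccl2 rose by 3.24 ± 0.25, with an adjusted p of 0.030. Ccl20, which attracts CCR6-bearing lymphocytes and dendritic cells, measured 0.14 and 0.40 at 0 h, then 2.07, 3.12 and 1.77. Its highest value was at 6 h, and the groups did not overlap. Ccl7, a monocyte attractant next to Ccl2 in its gene cluster, measured 1.15 and 1.14 at 0 h, then 2.40, 2.26 and 2.82. The untreated arrays were nearly equal and every treated array lay above them by more than 1. Ccl12, which attracts monocytes in the mouse, went the other way, with -0.066 and 0.12 at 0 h, then -0.18, -0.76 and -4.49. Most of its change of -1.84 ± 1.19 (log2, SE, limma adjusted p = 0.590) came from the 24 h array alone. On the KO arrays it measured -0.67 and -2.97 at 0 h, far apart, then -0.074, 0.10 and -0.012. All these values are log ratios to the reference, so their sizes do not rank the genes by abundance.

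Among CXC chemokines, Cxcl1, an attractant of neutrophils, measured -3.32 and -4.30 at 0 h, then -1.66, -2.08 and -2.49. It was highest at 1.5 h and lower on each later array, still above both untreated arrays at 24 h. Cxcl5, another attractant of neutrophils, took the opposite order, with -1.73 and -1.72 at 0 h, then -0.92, -0.36 and 0.095. Its 24 h value exceeded its 1.5 h value by 1.02 ± 0.36, which did not pass the test (limma, adjusted p = 0.842). Cxcl3, a relative of Cxcl1 in the same gene cluster, measured -0.31 and -0.79 at 0 h, then 0.43, 1.08 and 0.32, highest at 6 h. Cxcl10, which attracts activated T cells, measured -0.76 and -1.16 at 0 h, then 0.16, -0.12 and -0.36. In all 4 genes every treated array lay above both untreated arrays, as in 15.3% of all genes. None of the 4 passed the test of treated against untreated arrays (limma, adjusted p = 0.527 for each).

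The NF-kB list, inhibitors and subunits among them, had 31 measured genes. Of these, 10 (32.3%) lay above both 0 h arrays at each time and 4 (12.9%) below. Over all genes 15.3% lay above and 16.4% below. The median change of the list was 0.13 over the treated arrays. Nfkbia, which encodes IkB-alpha, measured -1.12 and -1.18 at 0 h, then -0.085, 0.002 and -0.20. The untreated arrays differed by less than 0.1 and the treated arrays lay 1.06 ± 0.15 above them (log2, 2.08-fold, limma adjusted p = 0.527). Nfkb2, the precursor of the p52 subunit, measured -0.38 and -0.34 at 0 h, then 0.50, 0.79 and 0.44. Bcl3, an IkB family protein that acts in the nucleus, measured -0.92 and -1.22 at 0 h, then 0.15, -0.15 and -0.22. Both genes were above their 0 h arrays at every time, Nfkb2 most at 6 h and Bcl3 most at 1.5 h. Rela, the transactivating subunit, measured -0.43 and -0.33 at 0 h, then 0.42, 0.59 and 0.27. Tnfaip3, which encodes the ubiquitin-editing inhibitor A20, was above both 0 h arrays by a smaller step, with 0.18 and 0.23 at 0 h, then 0.73, 0.52 and 0.59. Birc3 (cIAP2), Ikbke (an IkB kinase relative), Traf2, Nfkbie and Nfkbiz also lay above both 0 h arrays at each time, by 0.43 to 0.76 over the treated arrays together. Relb, the partner of p52, measured -0.10 and -0.06 at 0 h, then 0.48, 0.66 and -0.15, so the step seen at 1.5 and 6 h was gone at 24 h.

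Other genes, from the NF-kB list and from other lists, lay outside that pattern. Tnip1, which binds A20, and Map3k8, a kinase upstream of ERK, lay below both 0 h arrays on every treated array, with changes of -0.48 ± 0.17 and -0.49 ± 0.18 (log2, SE). Tnf itself measured -0.95 and -0.94 at 0 h, then -0.14, -0.66 and -1.16. It was above the untreated arrays at 1.5 and 6 h and below them at 24 h. Vcam1, an adhesion molecule for leukocytes, had the same shape with -0.31 and -0.33 at 0 h, then 0.23, 0.044 and -0.46. Icam1, the other endothelial adhesion molecule of the classic response, measured -0.90 and -0.51 at 0 h, then -0.54, -0.25 and -1.89, and so lay below both 0 h arrays at 24 h. Il6 (-0.81 and -0.23 at 0 h, then -0.06, -0.24 and -0.47) and Sod2, the mitochondrial superoxide dismutase (0.27 and 0.21, then -0.09, 0.25 and 0.090), showed no treated level above both 0 h arrays at all times.

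**Figure D2:**
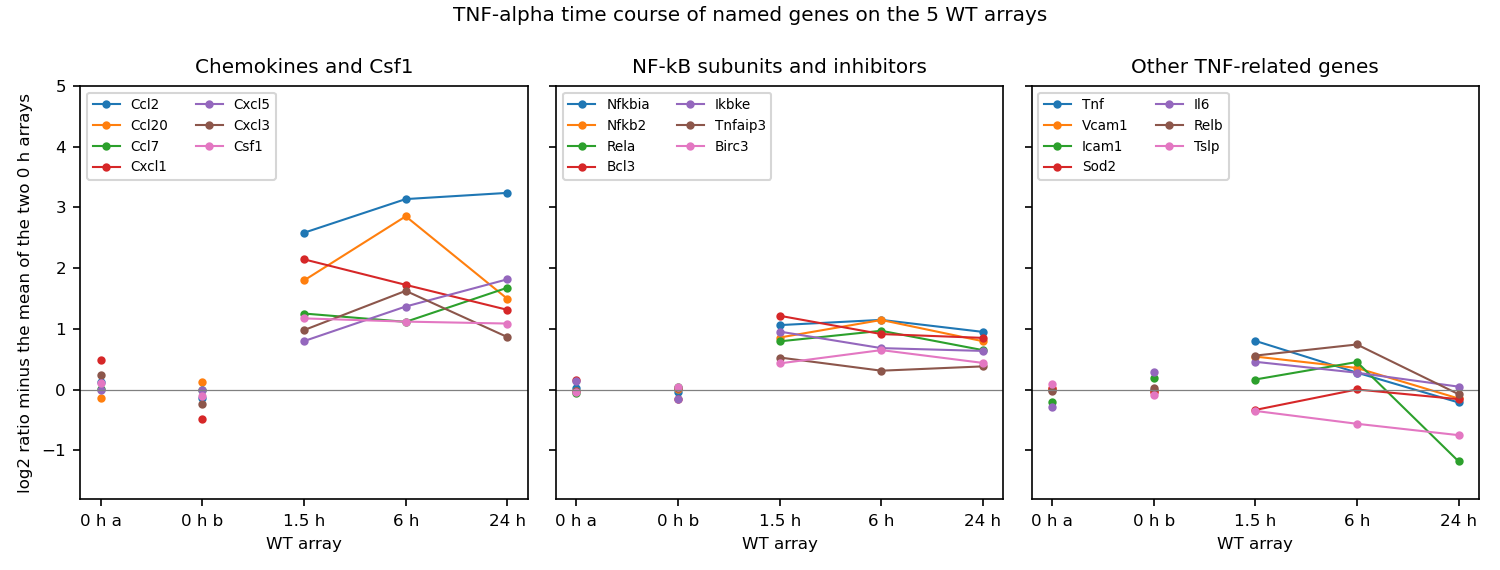
Log2 ratio of named genes on the 5 WT arrays, minus the mean of the 0 h arrays (points are single arrays; lines join the treated arrays). Ccl2 stays above 2.5 at all 3 times, Cxcl1 is highest at 1.5 h, Ccl20 at 6 h and Cxcl5 at 24 h. The genes in the panel of NF-kB subunits and inhibitors hold a lower plateau. In the panel of other genes Tnf, Vcam1, Icam1, Relb, Sod2 and Tslp end below 0.

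Csf1, the growth factor of macrophages, measured 1.33 and 1.11 at 0 h, then 2.39, 2.34 and 2.31. The 3 treated arrays agreed within 0.1 and lay 1.13 ± 0.15 above the untreated arrays (log2, 2.19-fold, limma adjusted p = 0.527). Lta, which encodes lymphotoxin, measured -0.64 and -0.98 at 0 h, then -0.24, 0.73 and 0.90, higher on each later array. Tslp, an epithelial cytokine, went the other way, with -1.16 and -1.34 at 0 h, then -1.60, -1.81 and -2.00. Neither passed the test.

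For the mean of the 3 treated arrays against that of the 2 untreated ones, 0 of 14365 genes passed at an adjusted p under 0.05 (limma, percent called 0), although 1351 had an unadjusted p under 0.05 against 718.25 expected by chance alone, 803 higher and 548 lower. The design gives 3 residual degrees of freedom, which hold the differences among the treated arrays as well as that between the 0 h arrays. Change between the treated times therefore raises the SE, and a gene that moved at a single time is less likely to pass. Ccl2 passed when arrays were scaled to equal spread (adjusted p = 0.012) or quantile normalized (adjusted p = 0.0063), and Cxcl1 under the former (adjusted p = 0.048).

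Counted without a test, all 3 treated arrays lay above both 0 h arrays in 15.3% of all genes (2204 of 14365) and below both in 16.4% (2350). Against that background the share above was 46.2% of the CXC and CX3C chemokines (6 of 13), 33.3% of the CC chemokines (6 of 18), 32.3% of the NF-kB pathway (10 of 31) and 26.1% of the interleukins and colony-stimulating factors (6 of 23). The shares below both were 15.4%, 11.1%, 12.9% and 8.70%. The median change of the treated arrays over each whole list was small, 0.17, 0.083, 0.13 and 0.16, against -0.0081 over all genes, so most members of each list did not share the steps given above. With arrays scaled to equal spread the members above both 0 h arrays numbered 5, 5, 11 and 7 in the same order, and 15.0% of all genes were above.

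The KO arrays, separate arrays of the same study against the same reference RNA, gave a second reading. Of the 28 genes of the 4 lists that were above both 0 h arrays at each time in WT, 18 were so in KO too, and 19 when the array labelled KO 24 h was left out. Over all genes 164 of 2204 (7.44%) were shared, or 231 (10.5%) without that array. In KO 12.9% of all genes were above at all 3 times, and 17.0% at both 1.5 and 6 h. Of the 85 list genes, 39 (45.9%) were above in KO at both 1.5 and 6 h, whatever their WT values. The NF-kB list shared 8 of 10, the CXC and CX3C chemokines 5 of 6, the CC chemokines 4 of 6, and the interleukins and colony-stimulating factors 1 of 6, which was Csf1. The KO values of Ccl2 were -0.28 and -0.39 at 0 h, then 2.75, 2.32 and 2.66. The WT response of Ccl2 differed from that of KO by 0.077 ± 0.27 (95% interval -0.60 to 0.76, limma adjusted p = 0.916), and its sign turned in 4 of the alternatives. For Ccl7 the difference was -0.32 ± 0.26 and for Nfkbia -0.57 ± 0.27, neither past the test. In the test of a difference in response 0 genes passed (limma, 1884 at an unadjusted p under 0.05). This count rose when either KO 0 h array was left out, which changes both the spread and the KO baseline. The part of each was not tested. Among the 18 genes the highest treated array was the 1.5, 6 or 24 h array for 6, 8 and 4 genes in WT, and for 11, 2 and 5 in KO, the same time in both for 10 of them. With the 24 h arrays left aside, 8 of the 18 were higher at 1.5 than at 6 h in WT and 12 in KO. These orders rest on 1 array per time.

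**Figure D3:**
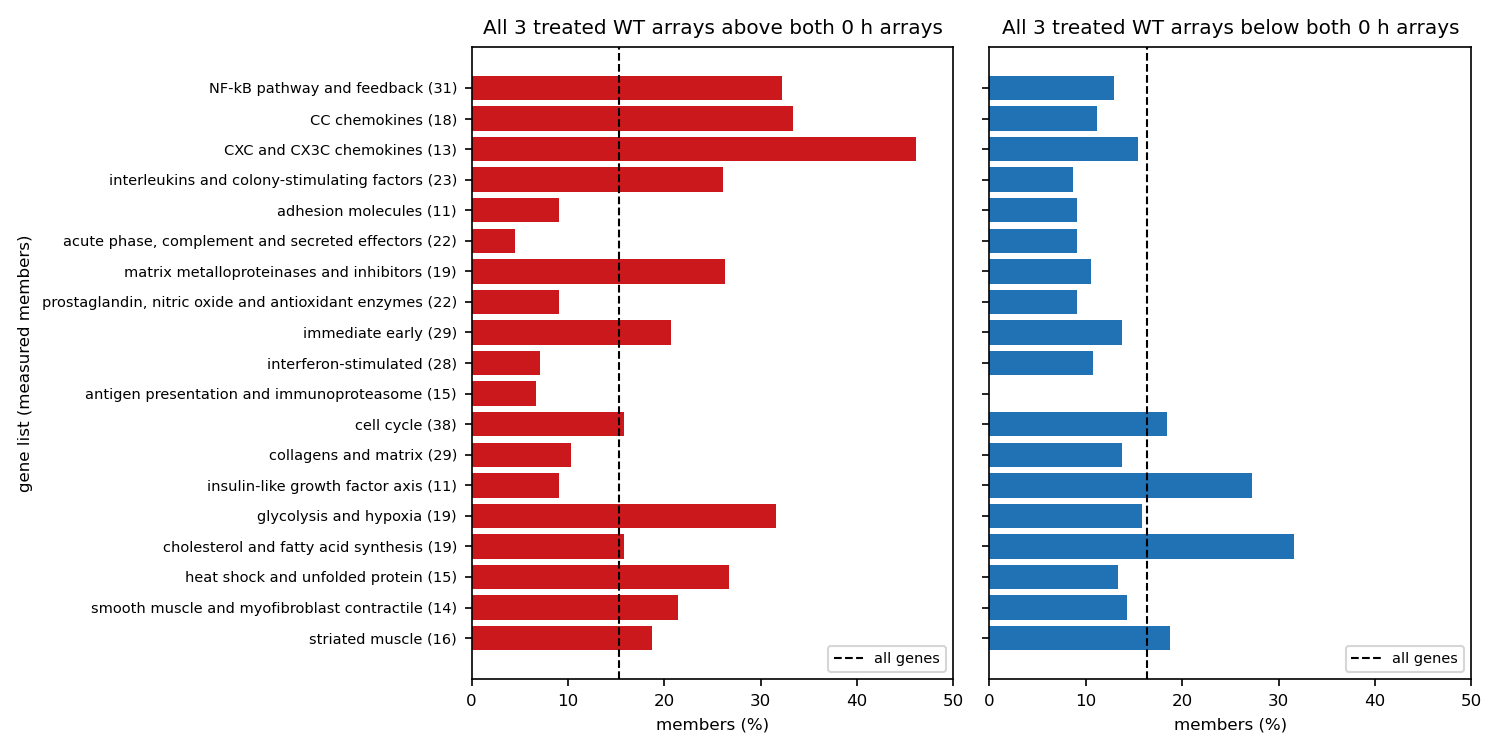
Share of the measured members of each gene list (number in brackets) whose 3 treated WT arrays all lay above (left) or below (right) both 0 h arrays, in percent; the dashed line marks all genes. The CXC and CX3C chemokines reach 46.2% above against 15.3% of all genes.

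Each treated array was also read alone. A gene was counted where it lay at least 1 (log2) beyond the nearer 0 h array, a description from single arrays that share the same 0 h pair. The 0 h arrays themselves differed by that much in 91 genes (0.633%). On the 1.5 h array 19 genes lay above (0.132%) and 25 below (0.174%). The 6 h array had 91 above (0.633%) and 336 below (2.34%), the 24 h array 182 above (1.27%) and 294 below (2.05%). The 6 and 24 h arrays are those with the wide spread given above; the part of that spread in these counts was not tested. The 4 lists, which hold 85 of the 14365 genes, made up 7 of the 19 genes above at 1.5 h, 11 of 91 at 6 h and 6 of 182 at 24 h. Of the genes below they made up 0 of 25, 1 of 336 and 2 of 294.

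Few genes passed the distance in the same direction on the WT and the KO array of one time. At 1.5 h the 7 genes above in both were Bcl3, Ccl2, Ccl7, Ccl20, Csf1, Cxcl1 and Nfkbia, all from the 4 lists. At 6 h the 6 genes were Ccl2, Ccl7, Ccl20, Cxcl1, Cxcl5 and Nfkbia, again all from the lists. At 24 h 13 were shared, of which 4 were from the lists (Ccl2, Ccl7, Ccl20 and Cxcl5). In KO 145 genes (1.01%), 293 (2.04%) and 289 (2.01%) lay above at those times, so the 7 shared genes were 36.8% of the WT set at 1.5 h and 4.83% of the KO set. Below both 0 h arrays, 1, 2 and 7 genes were shared, none of them from the lists. Of the 336 genes below in WT at 6 h, 254 lay above the 0 h mean in KO. Across all 14365 genes the WT and KO changes correlated at 0.095, -0.38 and -0.11 at the 3 times, and at 0.17, -0.27 and -0.058 after scaling to equal spread. Genes on an array share its labelling and spread, so these are descriptions. The genes shared and the correlation at 24 h rest on the array labelled KO 24 h, on which Sirt6 lay in the WT range.

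**Figure D4:**
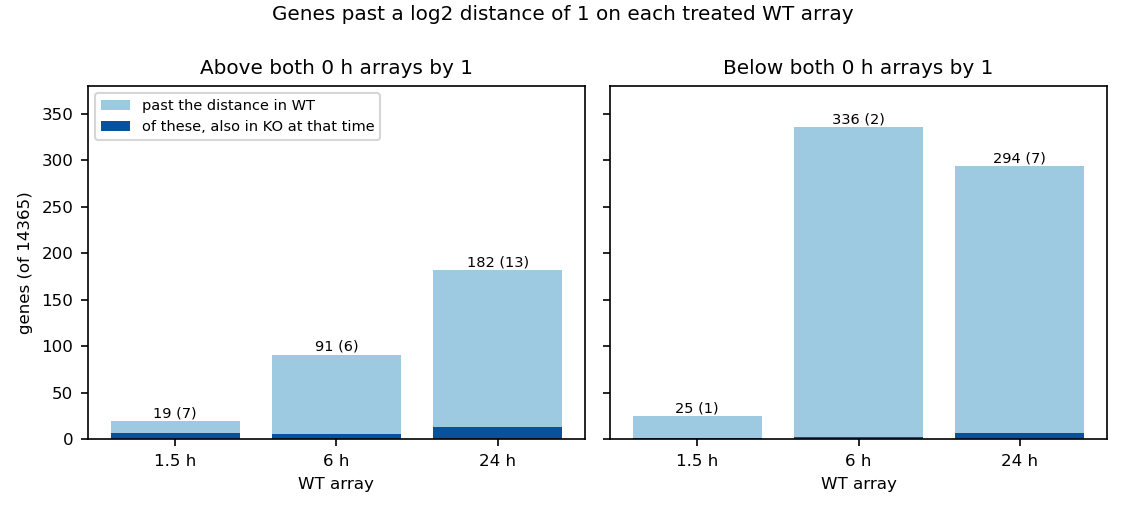
Number of genes at least 1 (log2) beyond both 0 h arrays on each treated WT array (bars from 0; pale), with those beyond it also on the KO array of that time (dark; number in brackets). The pale bars go from 19, 91 to 182 above and from 25, 336 to 294 below, whereas the shared part stays between 1 and 13.

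**Figure D5:**
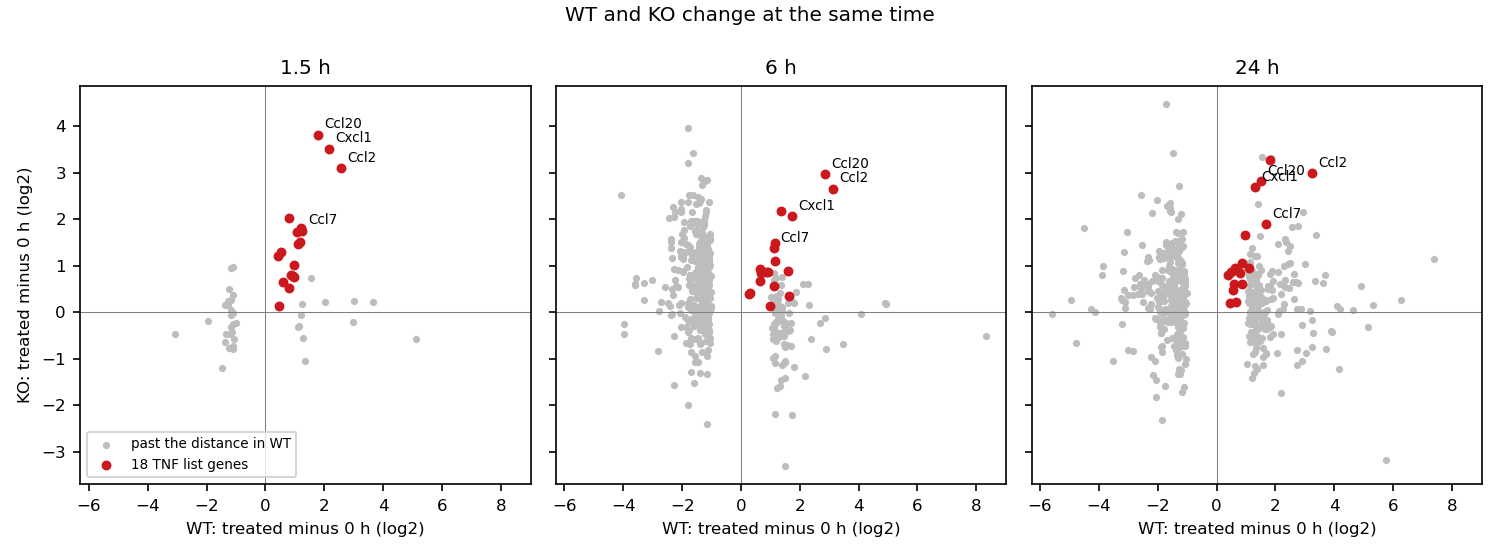
Change from 0 h (log2) in WT (x axis) and KO (y axis) at each time; each grey point is a gene past the distance of 1 in WT, each red point 1 of the 18 list genes above both 0 h arrays in WT and KO, which by that choice lie in the upper right. Grey points spread to both sides of 0 on the KO axis, and 254 of the 336 genes below in WT at 6 h lie above 0 in KO.

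Sorted by time, 15 genes were early (0.104% of genes, past the distance at 1.5 h and not at 24 h), 4 sustained (0.0278%, all 3 times), 178 late (1.24%, at 24 h and not at 1.5 h) and 78 high at 6 h only (0.543%). The early count moved with the spread of the arrays, to 45 with arrays scaled to equal spread and 56 after quantile normalization, while the late count was 191 and 196. The sustained genes were Ccl2, Ccl7, Ccl20 and Uty. Uty, a Y-linked histone demethylase relative, measured -1.01 and -1.13 at 0 h, then 0.03, 0.52 and 0.25. The 3 chemokines were sustained in KO too, where 53 genes were (0.369%), and Uty was not. At 1.5 and 6 h alone, 68 genes (0.473%) passed the distance at both times in KO, the 3 chemokines among them and Uty again not. Uty came just inside the rule, 1.04 above the nearer 0 h array at 1.5 h, and Csf1 just outside it, 0.98 above at 24 h. When probes with missing values were allowed, the change of Uty over the treated arrays went from 1.34 to 0.43. Scaling to equal spread gave 7 sustained genes, Bcl3, Cxcl1, Nfkbia and Ikbke joining Ccl2, Ccl20 and Uty, and Ccl7 leaving. Without 0 h array a the number was 27.

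The early genes above were of 2 kinds by their KO values. Bcl3, Csf1, Cxcl1 and Nfkbia, described above, passed the distance in KO at 1.5 h as well, and were the only 4 of the 15 in any time class there (3.68% of all genes), or past the distance at 1.5 or 6 h without the array labelled KO 24 h (2.58%). Csf1 was early in KO too, as were 0.536% of genes. The other 11 did not, among them Adgrb1, a receptor of the adhesion family, at 0.32 and 0.32 at 0 h, then 5.43, 0.27 and 0.41. Nrtn, which encodes the growth factor neurturin, measured -0.02 and 0.23 at 0 h, then 3.75, -0.60 and -0.67. Each of these stood high on 1 array alone, and neither passed the test at 1.5 h (limma, adjusted p = 0.220 for both). The later fall of Nrtn from 1.5 to 24 h passed (-4.42 ± 0.32, adjusted p = 0.034). At 1.5 h 0 genes passed the test against 0 h (limma, 339 at an unadjusted p under 0.05).

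Early genes below numbered 23 (0.16%). Thbs1, which encodes the matrix glycoprotein thrombospondin, measured 1.37 and 1.51 at 0 h, then 0.076, 1.89 and 2.15. It was low at 1.5 h only. Prmt1, the main arginine methyltransferase, measured 0.77 and 0.78 at 0 h, then -0.69, 0.98 and 1.06, and was the one gene of the 23 that was early and low in KO too, as were 0.668% of genes (0.75 and 0.56, then -0.55, 0.26 and 1.13). It was also the one of the 23 that was low on the KO 1.5 h array, as were 0.745% of genes. Tpm4, a tropomyosin of the actin skeleton, measured 0.64 and 0.78 at 0 h, then -0.63, 0.76 and 0.073. The single gene low at all 3 times was Dclk3, a kinase of the doublecortin-like family, with -0.34 and -0.19 at 0 h, then -1.38, -1.50 and -1.95. In KO, where 0.0348% of genes were low at all 3 times and 0.111% at both 1.5 and 6 h, it was not low at any. The late genes below numbered 292 (2.03%) and those low at 6 h only 288 (2%). Hmox1, the haem-degrading enzyme of the antioxidant response, was alone in being low at 1.5 and 24 h and not at 6 h, with 0.52 and 0.95 at 0 h, then -1.23, 0.84 and -2.38. On the KO arrays it stayed between 0.63 and 0.99.

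At 24 h 35 genes passed the test against 0 h (limma, percent called 0.244), 21 higher (0.146%) and 14 lower (0.0975%). Ccl2 was the only one of them from the 4 lists. The largest rise was that of Cd83, a surface protein of mature dendritic and activated lymphoid cells, which measured 0.23 and 0.37 at 0 h, then 0.25, 0.22 and 7.70. It rose by 7.40 ± 0.28 (adjusted p = 0.0058) on the 24 h array alone, and on the KO arrays it lay between -0.48 and 1.24, highest on the array labelled KO 24 h. Prkcd, the delta isoform of protein kinase C, measured -0.12 and 0.34 at 0 h, then -0.11, 0.13 and 3.46. Mycl, a member of the Myc family, measured -3.06 and -2.66 at 0 h, then -3.11, -3.17 and 0.14. In both, 24 h was high and 1.5 and 6 h lay with the untreated arrays.

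Genes that fell at 24 h included Jdp2, a repressor of AP-1 (1.29 and 1.50 at 0 h, then 0.96, 1.54 and -2.87), and Gpx7, a glutathione peroxidase of the endoplasmic reticulum (2.00 and 2.16, then 1.64, 3.09 and -1.44). Hmox1 fell by 3.11 ± 0.31 (adjusted p = 0.044). Pzp, a plasma proteinase inhibitor, fell by 5.59 ± 0.29 (adjusted p = 0.012). All 35 genes were measured by 1 probe, as were 68.2% of all genes, and 1 of the 35 was past the distance in the same direction on the array labelled KO 24 h. Of the 35, 6 were olfactory or vomeronasal receptor genes. Such sensory receptors made up 6.54% of all genes, 15.2% of the late genes above (27 of 178) and 17.9% of those high at 6 h only (14 of 78). Of the late genes above with several probes, 3 of 34 had every probe in that class.

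At 6 h 1 gene passed (limma, percent called 0.00696, 1080 at an unadjusted p under 0.05), the olfactory receptor gene Olfr741, at -0.47 and -0.50 at 0 h, then 0.11, 7.84 and -0.08. Between 24 and 1.5 h 13 genes passed (0.0905%), 9 higher (0.0627%) and 4 lower (0.0278%) at 24 h. The test of each single time takes its spread from the 0 h pairs of both genotypes and assumes that a lone treated array varies like those pairs. With 0 h array a or b of WT left out, no gene passed at 24 h, and with the spread of the WT pair alone 487 did. Without centring, the 24 h calls were 29 higher and 43 lower, in place of 21 and 14.

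Inflammatory effectors outside the chemokines did not form a common step. Of 22 measured acute phase, complement and secreted effector genes 1 lay above both 0 h arrays at each time (4.55%). The share over all genes, against which this and the shares below are to be read, was 15.3%. Lcn2, an iron-sequestering acute phase protein, measured -2.15 and -1.74 at 0 h, then -2.34, -3.74 and 0.16. It was lowest at 6 h and highest at 24 h. Saa3 lay between -2.64 and -2.19 on all 5 arrays. Adhesion molecules had 1 of 11 above (9.09%), prostaglandin, nitric oxide and antioxidant enzymes 2 of 22 (9.09%), and interferon-stimulated genes 2 of 28 (7.14%). Matrix metalloproteinases and their inhibitors had 5 of 19 (26.3%, and 3 with arrays scaled), among them Timp1, with 2.01 and 2.02 at 0 h, then 2.64, 2.66 and 2.31. In KO 0 of these 5 were above both 0 h arrays at each time. Immediate early genes had 6 of 29 (20.7%, and 4 with arrays scaled), among them Fosl1, the Fra-1 subunit of AP-1, with -0.13 and -0.48 at 0 h, then 0.29, 0.33 and 0.24. No member of these lists passed the test of treated against untreated arrays.

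Markers of cell types were read as ratios to the reference, since no cell type is given. Col1a1, the collagen of fibroblasts and bone, lay between 1.57 and 1.96 on the WT arrays. The 12 fibroblast markers had medians of 0.94 and 0.65 at 0 h, then 0.73, 0.91 and 0.81. The 14 macrophage markers had medians of -0.68 and -0.87 at 0 h and -0.25 at 24 h, and their summed log2 ratios were -11.8 and -14.2, then -13.1, -18.9 and -9.42. At 24 h Itgam, a myeloid integrin, was at 3.15 against 0.05 and 0.17 at 0 h, and Ptprc, the pan-leukocyte phosphatase CD45, at 0.70 against -1.70 and -1.81. These were the 2 markers at least 1 above both 0 h arrays at 24 h, while 3 lay at least 1 below. Those were Adgre1 (-1.13 and -1.50 at 0 h, -2.50 at 24 h), Ctss (-2.73 and -2.96, then -4.14) and Fcer1g (-1.07 and -0.98, then -2.19). On all 3 treated arrays, 2 of the 14 macrophage markers (14.3%) lay above both 0 h arrays and 4 (28.6%) below, with Adgre1, Ctss and Fcer1g in the latter. Over all genes these shares were 15.3% and 16.4%. Itgam and Ptprc stood high on the array on which Cd83 stood high; their part in the 24 h result was not tested. In bulk RNA fewer cells of a type and less RNA per cell cannot be told apart.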

How the data were processed

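The authors' deposited table holds 1 log ratio per spot for 10 arrays, read here as log2; per the labels, TRIzol RNA was amplified and 15 ug labelled with Cy5, against reference RNA in Cy3. The authors' normalization and the base of the log are not given in the sources used here. Of 38784 spots, 36113 had no missing value and were used. The probe table gave 22204 spots a single symbol, all updated through RefSeq by Entrez ID, and 14916 complete spots without one were tested apart. Probes of a gene were averaged, then the gene median of an array was subtracted. Scanner intensities were not used here, so whether a spot was above background is unknown; precision is limited by how few arrays there are.

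Differences were tested in R 4.3.3 with limma 3.58.1 (lmFit and eBayes, two-sided, Benjamini-Hochberg over all genes, threshold 0.05). Treated against untreated was fitted on the 5 WT arrays with 1 mean for the treated and 1 for the untreated arrays. Single times and the difference from KO were fitted on all 10 arrays with 1 mean per genotype and time, 2 residual degrees of freedom. The scripts were tested on simulated data. Groups came from sample titles.

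Members and gene lists were chosen with earlier results of these data known. The named genes were a fixed set of TNF-alpha related genes, those with the largest change or smallest p in each comparison, up to 8 per time class and up to 6 per list; genes named as shared with KO, and the set of 18, were picked after their values were seen. The alternatives were no centring, quantile normalization, scaling to equal median absolute deviation, a running median over 101 spots removed, missing values, a filter on SD, a robust prior, single probes, other thresholds, the letters as a block, and leaving out each array.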

Additional observations from a re-analysis of the deposited data

Results flagged for a closer look

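In 13 named genes every treated WT array lay beyond both 0 h arrays one way and every treated KO array beyond its own 0 h arrays the other way. The pattern was not particular to them. Over all genes, 278 of the 2204 above in WT lay below in KO, and 164 lay above. Of the 2350 below in WT, 441 lay above in KO and 170 below. The WT minus KO difference in response (log2, limma) was -1.17 for Tslp, -1.49 for Map3k8, -2.43 for Oasl2, -1.04 for Pdk1, -2.90 for Dclk3, -3.03 for Gpm6a and -1.56 for Rbl1. It was -1.51 for Gadd45a, -1.50 for Podn, 0.64 for Itgb5, -1.17 for Igf1, -1.74 for Pax7 and -3.66 for Ccl12. None passed the test of that difference; the smallest adjusted p among them was 0.226, for Dclk3 and Rbl1. With both 24 h arrays left out these differences kept their signs, and the smallest adjusted p was 0.333, for Dclk3. The genotypes started apart in several of these genes, as in Dclk3, at -0.34 and -0.19 in untreated WT and at -2.12 and -2.55 in untreated KO.

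Among spots without a single gene symbol, which the comparisons above leave out, 4 were high at all 3 times in WT, and none of these 4 was so in KO. At 24 h 6 such spots passed the test against 0 h (limma, 1018 of 14916 at an unadjusted p under 0.05).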

How the results depend on the processing

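Treated together, the 0 calls became 1 without centring, 1 after quantile normalization, 2 with only genes of above-median SD, and 2 with arrays scaled to equal spread, and stayed 0 without any WT array. At 1.5 h the 0 calls became 4 after quantile normalization and 5 with scaling. At 6 h the 1 call became 6 without centring, 7 after quantile normalization, 6 at an adjusted p under 0.1 and 7 with scaling. At 24 h the 35 calls became 72 without centring (40.3% higher, against 60% as reported), 68 after quantile normalization (44.1% higher), 71 at an adjusted p under 0.1, 87 with scaling (48.3% higher) and 54 with the trend over spot order removed (66.7% higher). Between 24 and 1.5 h the 13 calls (69.2% higher) became 30 (50% higher), 38 (55.3% higher), 33, 47 (53.2% higher) and 20 (60% higher) in that order. With the 5 WT arrays alone, so that the spread comes from 1 pair, the counts were 6, 364, 487 and 201. Leaving out single arrays gave 0 to 6 calls at 1.5 h, 0 to 364 at 6 h, 0 to 487 at 24 h, 0 to 201 between 24 and 1.5 h, and 0 to 2378 for the difference from KO. The lowest counts came without a WT 0 h array. The highest came without a KO 0 h array, 2378 without array a and 404 without array b for the difference from KO. The treated WT arrays carry no letter, so only the 0 h arrays share letters across genotypes. Differences of b minus a correlated at -0.0053 over genes between WT and KO, and with the letters as a replicate block the calls were 15 at 24 h and 4 between 24 and 1.5 h.

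At a log2 distance of 0.58 there were 144 early, 37 sustained and 581 late genes above, and 176, 7 and 920 below; at 1.5 there were 7, 1 and 90 above, and 1, 0 and 116 below. Quantile normalization gave 56 early and 8 sustained genes above and 49 early below. Scaling gave 45 and 7 above, and 52 early and 0 sustained below. Removing the trend over spot order gave 11 early and 0 sustained below. Without single WT arrays, 4 to 27 genes were sustained above and 1 to 48 below.

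Named genes kept their direction in every alternative of the WT comparisons. In the difference from KO, Ccl2 turned to -0.070 without centring, -0.052 without WT 0 h array b, -0.56 with spot order removed and -0.0094 with both 24 h arrays left out. Csf1 turned from 0.12 to -0.024 without centring, -0.29 after quantile normalization, -0.045 without KO 0 h array b (range -0.045 to 0.29 over single arrays left out), -0.39 with scaling and -0.39 with spot order removed. Nfkbia turned to 0.21 after quantile normalization and 0.071 with scaling. The causes were not tested. Allowing missing values, single probes, a robust prior or a minimum change of 1 left the counts of genes past each test within 1.5 times; the time classes were not counted under these. The alternatives for scaling, spot order, sustained genes and the 24 h arrays were chosen after seeing the data.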

Other observations

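Gene lists outside inflammation are set here against the background of 15.3% above and 16.4% below both 0 h arrays; the share above, 31.6% in glycolysis and hypoxia genes and 30% in endothelial markers (3 of 10), was close to the 33.3% of the CC chemokines. Cholesterol and fatty acid synthesis had 6 of 19 members below at every time (31.6%, and 5 with arrays scaled) and 3 above, with Scd1 and Srebf1 among those below. The insulin-like growth factor axis had 3 of 11 below (27.3%, and 2 with arrays scaled), Igf1, Igf2 and Igfbp4. Igf1 measured -0.21 and -0.17 at 0 h, then -0.26, -0.80 and -0.75. Glycolysis and hypoxia genes had 6 of 19 above, but 2 with arrays scaled; Vegfa measured -1.35 and -1.51 at 0 h, then -0.88, -0.52 and -0.97. Cell cycle genes had 6 of 38 above and 7 below, heat shock and unfolded protein genes 4 of 15 above (26.7%, and 3 with arrays scaled) and 2 below, collagens and matrix genes 3 of 29 above and 4 below. None of these genes passed the test of treated against untreated arrays.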
